A study of Mus musculus with 24 samples.

Results

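Open chromatin was described at the genes of the TEAD transcription factors and of the proteins that bind them in mouse hindlimb muscle: Tead1, Tead2, Tead3 and Tead4, the cofactor genes Vgll2, Vgll3 and Vgll4, and Yap1 and Wwtr1, which encode the coactivators YAP and TAZ. These 9 genes, of 34614 annotated ones, were chosen by name. ATAC-seq peaks of 24 libraries were merged into regions, the 459616 of them that 2 or more libraries had called were kept, and those that overlapped a member's gene body or the 10 kb on each side of it were taken as its locus. The 9 loci held 334 regions, of which 274 lay inside the genes, 16 within 1 kb of a gene end and 44 in the flanks. A member's regions are named by number in order of coordinate (Tead1 r30 is region 30 of the Tead1 locus), and coordinates are on mm10.

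TEAD proteins bind DNA through the MCAT element, a short sequence found near many muscle genes, and have little activity without a partner. YAP and TAZ are such partners: the kinases of the Hippo pathway phosphorylate them and keep them out of the nucleus, and without that phosphorylation they enter it and activate TEAD targets in growing and mechanically loaded tissue. Vestigial-like proteins use the same surface of TEAD: Vgll2 is known from differentiating skeletal muscle and its fibre types, Vgll3 from muscle and cartilage progenitors, and Vgll4 as a competitor of YAP.

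ATAC-seq marks accessible DNA with the transposase Tn5. The study took soleus and vastus intermedius, which it calls slow-biased (rich in slow-contracting fibres), and gastrocnemius and vastus lateralis, which it calls fast-biased, from 3 adult male mice and, shortly before birth, from 3 litters of embryos at stage E18.5, all of the inbred strain FVB/NJ and with no allele or treatment named. The adult age is given as day P56 in the series' design and as 3 to 4 months in the protocols, and was not settled here. An E18.5 replicate pooled muscles of up to 5 male embryos of 1 litter, each adult or litter supplied all 4 muscles, and nuclei were isolated without digesting the tissue, so that cells other than muscle fibres could add to the peaks. The design asks how open chromatin differs between the stages and between muscles that differ in slow fibre content.

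Each library was deposited as a list of peak positions with no score, so a region is either called or not in a library, and a missing call does not show closed chromatin. No source used here gives read depths: list length, from 115333 to 219114 peaks in adult and from 120387 to 228137 peaks in E18.5 libraries, was the only measure of depth. The loci of 6 muscle fibre markers held 68 to 110 called regions per adult library, against 32 to 62 per E18.5 library, and 36 of their 111 tested regions (32.4%, against 1.55% of all regions) were called more often in adult and 3 (2.7%, against 4.55%) at E18.5. This gap came from Ttn, the gene of the giant sarcomere protein titin, with 67.5 ± 5.88 called regions in adults and 13 ± 2.14 in litters, and 33 of the 36. The other 5 fibre markers held 25 to 34 per adult library (29 ± 1.32 over adults), against 25 to 37 per E18.5 library (29.7 ± 3.09 over litters; SD, n = 3 each). The loci of 6 fibroblast markers held 17 to 35 called regions per adult library, against 26 to 49 per E18.5 library, with 0 of 47 tested regions called more often in adult and 6 (12.8%) at E18.5. All 6 lay at collagen genes: 1 at Col1a1, 3 at Col1a2 and 2 at Col3a1. Pdgfra, Dcn and Lum had 0, with means of 9.08, 2.42 and 0.917 called regions in adults and 12.25, 2.83 and 0.833 in litters. Called more often at E18.5 were also 3 of 48 regions of satellite cell markers (6.25%), 2 of 30 of tendon (6.67%), 1 of 17 of Schwann cell (5.88%) and 0 of 49, 25 and 53 of endothelium, immune cell and smooth muscle markers, and in adult 1 of 53 regions of smooth muscle (1.89%), 1 of 17 of Schwann cell (5.88%) and 0 of the other lists. The part of cell makeup in the stage differences at the TEAD, Vgll and YAP loci was not tested. Fewer cells of a type and less open chromatin per cell cannot be told apart in these libraries. Strings that read as dates in the names of the lists also differ between the stages, and within each stage they set replicate 1 apart from replicates 2 and 3, so stage and date cannot be told apart.

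Each of the 7 members with a known start window had a peak there in at least 10 adult and all 12 E18.5 libraries, and the windows of 5 of them held the core TEAD motif. Promoter windows, 250 bases before to 50 after the gene start, were available from RefSeq (GRCm38.p6) for 7 members (all but Tead1 and Tead4), in 10 windows. GGAATG, the core of the MCAT element, was searched on both strands and stood in 7 of the 10 windows and in 5 of the 7 genes (Tead3, Vgll3, Vgll4, Yap1 and Wwtr1), against 14.7% of 32851 windows and 16.6% of 27025 genes in the whole table. It did not stand in the windows of Tead2 and Vgll2. The Wwtr1 windows overlap and hold the same match, which is counted in each of them. The windows of these 5 genes are shown, 1 for each gene, on the strand of the gene, because these are the starts at which members carry the motif of their own family. Capitals mark GGAATG or its reverse complement CATTCC.
Tead3 promoter, chr17:28350551-28350850, minus strand: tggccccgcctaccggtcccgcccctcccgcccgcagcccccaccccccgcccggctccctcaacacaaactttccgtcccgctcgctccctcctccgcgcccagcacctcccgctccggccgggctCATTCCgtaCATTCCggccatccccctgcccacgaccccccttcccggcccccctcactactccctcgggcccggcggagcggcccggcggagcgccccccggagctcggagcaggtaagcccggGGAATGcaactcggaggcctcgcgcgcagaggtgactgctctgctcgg
Vgll3 promoter, chr16:65814939-65815238, plus strand: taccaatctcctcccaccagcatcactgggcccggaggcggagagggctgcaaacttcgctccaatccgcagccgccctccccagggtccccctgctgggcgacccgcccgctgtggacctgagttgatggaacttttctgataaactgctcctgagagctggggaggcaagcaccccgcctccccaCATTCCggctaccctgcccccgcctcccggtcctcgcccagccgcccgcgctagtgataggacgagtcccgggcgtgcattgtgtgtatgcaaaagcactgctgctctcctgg
Vgll4 promoter, chr6:114969154-114969453, minus strand: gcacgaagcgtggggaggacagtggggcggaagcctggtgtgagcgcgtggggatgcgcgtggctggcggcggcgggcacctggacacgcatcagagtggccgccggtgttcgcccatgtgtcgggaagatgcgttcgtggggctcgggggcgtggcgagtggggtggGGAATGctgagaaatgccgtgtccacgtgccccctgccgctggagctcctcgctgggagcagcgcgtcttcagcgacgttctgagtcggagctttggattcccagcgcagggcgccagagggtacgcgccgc
Yap1 promoter, chr9:8004547-8004846, minus strand: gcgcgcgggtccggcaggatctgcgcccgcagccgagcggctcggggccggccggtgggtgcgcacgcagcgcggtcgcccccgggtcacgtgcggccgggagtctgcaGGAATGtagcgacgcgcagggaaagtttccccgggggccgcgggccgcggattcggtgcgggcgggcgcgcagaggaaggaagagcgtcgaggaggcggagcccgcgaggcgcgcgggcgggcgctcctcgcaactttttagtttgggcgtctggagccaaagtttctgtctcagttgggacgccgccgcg
Wwtr1 promoter, chr3:57575861-57576160, minus strand: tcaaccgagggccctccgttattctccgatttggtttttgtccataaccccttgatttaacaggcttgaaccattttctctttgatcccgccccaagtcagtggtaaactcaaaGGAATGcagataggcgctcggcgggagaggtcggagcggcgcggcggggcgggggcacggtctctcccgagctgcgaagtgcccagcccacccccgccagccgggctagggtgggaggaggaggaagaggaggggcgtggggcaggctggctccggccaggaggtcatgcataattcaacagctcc
The Tead3 window shown held 3 matches, at positions -123, -114 and 3 from the gene start, and 0.131% of all windows held 3 or more. The other windows of Tead3, at other starts of the gene, held 0 and 1. The CATTCC of Vgll3 began at position -63, the GGAATG of Vgll4 at -82, that of Yap1 at -141 and that of Wwtr1 at -136. Peaks overlapped the windows of Tead3, Vgll3, Yap1 and Wwtr1 in all 24 libraries, that of Vgll4 in 11 adult and 12 E18.5 libraries, and those of the other two members without the motif in 12 adult (Vgll2) or 10 adult (Tead2) and all 12 E18.5 libraries. A match describes letters in the window and was not tested as a site of binding. Of 3 other motifs, CANNTG (the E-box bound by myogenic factors) stood in 3 of the 7 genes against 75% of all genes, the MEF2 motif (CTA, any 4 bases, TAG) in 1 of 7 against 4.23%, and TGANTCA (AP-1) in 0 of 7 against 8.97%.

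Most regions at the 9 loci were called in few libraries or in nearly all. Of the 334 regions, 133 were called in fewer than 5 libraries and 23 in all 24, which is 6.89% of them, against 3.98% of all regions. The median region was called in 6 libraries, against 4 over the genome. Regions called in adult libraries alone numbered 41 (12.3%, against 14.9% of all regions), and regions called in E18.5 libraries alone numbered 29 (8.68%, against 10.3%). Every member had at least 1 region called in all 24 libraries. These included a region at a gene end of each of them: Tead1 r2, Tead2 r6 and r16, Tead3 r8, Tead4 r33, Vgll2 r1, Vgll3 r2, Vgll4 r7 and r46, Yap1 r39 and Wwtr1 r52.

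**Figure D1:**
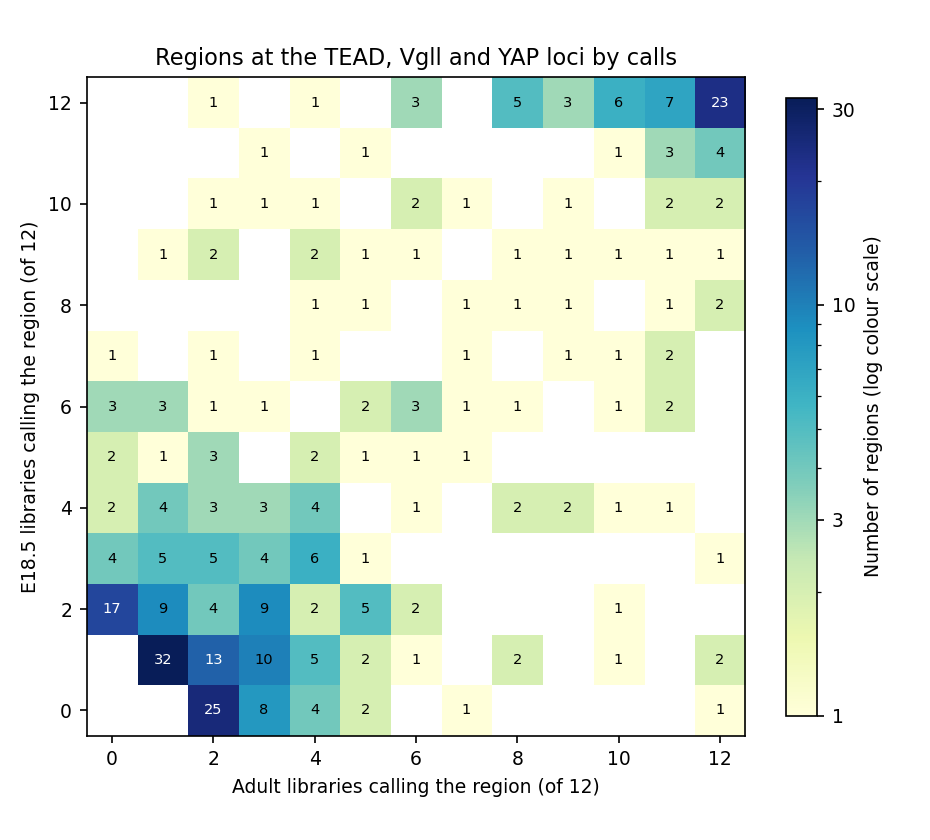
Number of adult libraries (x axis, of 12) and of E18.5 libraries (y axis, of 12) that called each of the 334 regions, with the number of regions printed in each cell and shown by colour on a log scale. The largest groups are the 32 regions called once in each stage, the 25 called in 2 adult and 0 E18.5 libraries and the 23 called in all 24, and 1 region stands at 12 adult and 0 E18.5 libraries.

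Between the stages, 9 of the regions differed past the threshold, and 5 of the 9 lay inside Tead1, which held 52 of the 141 tested regions. Calls in the 12 adult libraries were compared with those in the 12 E18.5 libraries by Fisher's exact test (two-sided) at every region, and p-values were adjusted by Benjamini and Hochberg's method over the 170267 regions of the genome whose number of calls could reach 0.05. Of the 141 member regions among them, 5 (3.55%) were called more often in adult, where the share over all regions was 1.55%, and 4 (2.84%) were called more often at E18.5, where the share over all regions was 4.55%. At an unadjusted exact p under 0.05 the counts were 13 and 19 of the 141. The share over all regions at that level was not counted, so nothing about these loci is read from them. The 4 libraries of an animal or litter are not independent, so these p-values are too small. Tead1 r30 alone (0.299% of the 334) was called in all 12 adult and no E18.5 libraries, a pattern shown by 0.0231% of all regions. The reverse pattern was shown by 0 member regions and 0.0646% of all regions. The count in adult stayed between 4 and 6 without any 1 animal, and the count at E18.5 was 1 without adult 2, adult 3 or litter 1 and 2 without litter 2. The counts in adult and at E18.5 were 3 and 6 where peaks had to cover 50% of a region, and 2 and 0 in lists thinned to the length of the shortest. Over all tested regions they were 1632 and 6828 of 51470 with the 50% cover, and 319 and 805 of 150873 in thinned lists.

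**Figure D2:**
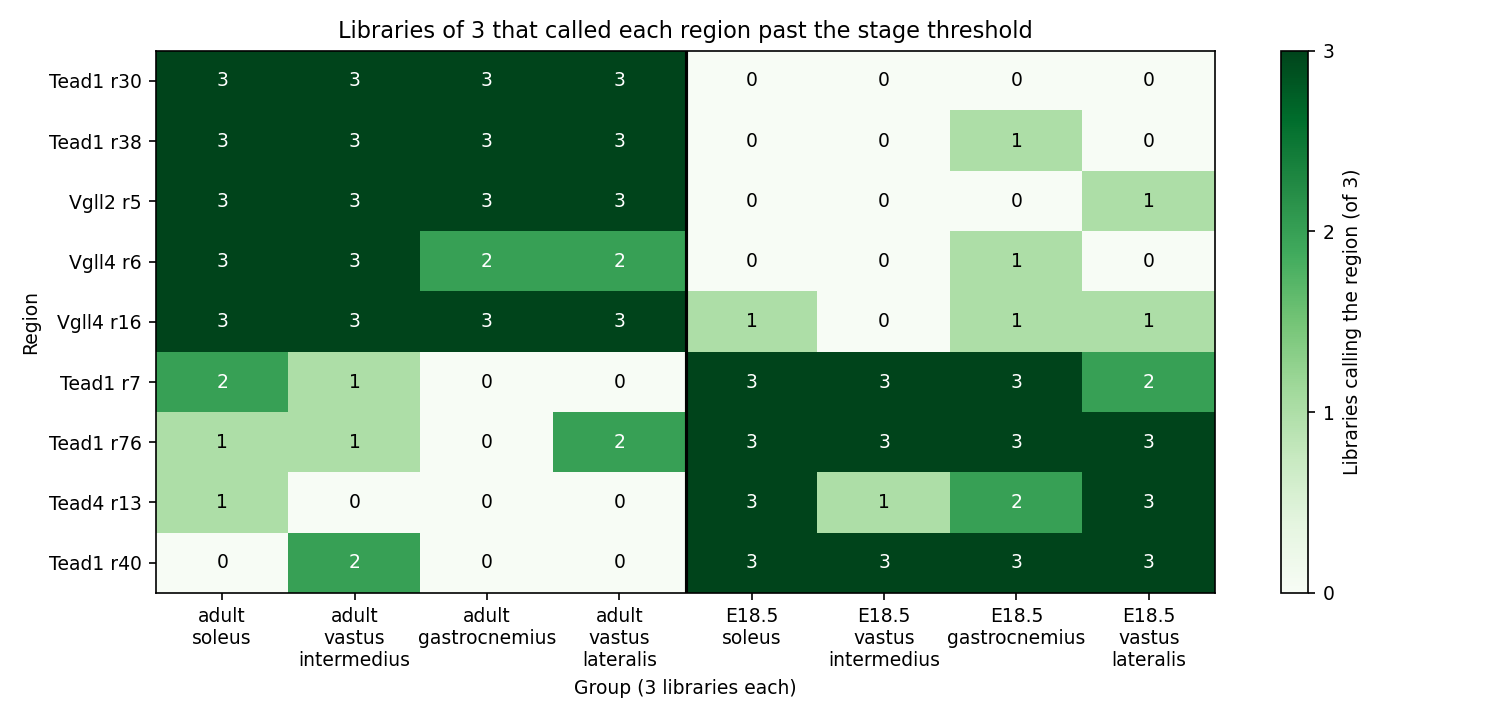
Number of libraries (of 3) that called each of the 9 regions past the stage threshold, by group: 4 adult muscles to the left of the line and 4 E18.5 muscles to the right of it. The upper 5 regions were called in 10 to 12 adult and 0 to 3 E18.5 libraries, the lower 4 in 1 to 4 adult and 9 to 12 E18.5 libraries.

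Tead1, the longest gene of the 9 (227429 bp, chr7:112679356-112906784), held 111 of the 334 regions, 105 of them inside the gene. Its 6 regions called in all 24 libraries were r2 at the lower-coordinate end and r9, r31, r70, r93 and r97 inside. Of 52 tested regions, 2 were called more often in adult and 3 at E18.5, where the shares over all regions were 1.55% and 4.55%. These 5 lay at 5 places of the gene: 11.3 kb (r7), 62.4 kb (r30), 77.4 kb (r38), 81.4 kb (r40) and 158 kb (r76) from the lower-coordinate end. With the gene cut into 4 equal parts from the lower-coordinate end, the second held both adult regions and r40 among 28 regions, the first held r7 among 26, the third r76 among 28 and the last none among 24. Regions of the 4 parts averaged 4.64 to 4.96 adult calls and 3.96 to 5.5 E18.5 calls of 12.

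**Figure D3:**
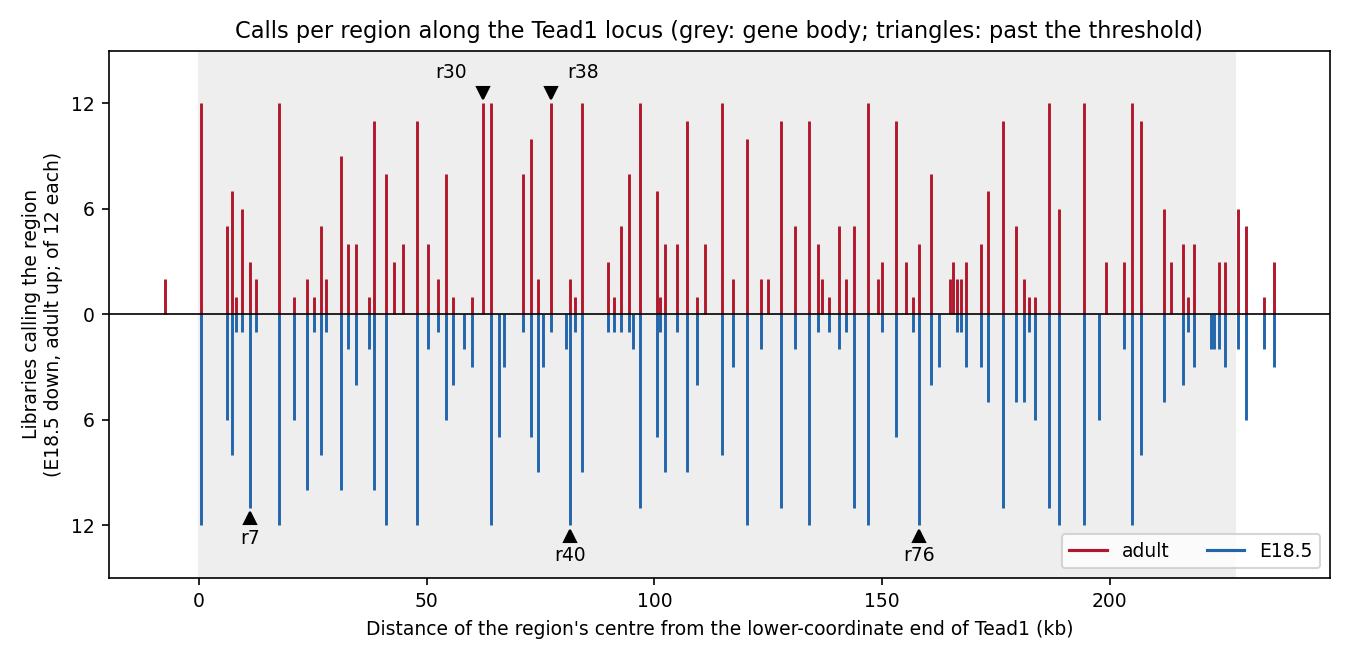
Libraries that called each of the 111 regions of the Tead1 locus (y axis, of 12: adult upwards, E18.5 downwards) against the distance of the region's centre from the lower-coordinate end of the gene (x axis, kb), with the gene body in grey. Triangles mark the 5 regions past the stage threshold: r30 and r38, called in 12 adult libraries each, stand 62.4 and 77.4 kb into the gene, and r7, r40 and r76, called in 11 or 12 E18.5 libraries each, stand at 11.3, 81.4 and 158 kb.

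Tead1 r30 (chr7:112741128-112742442) was the region with the clearest split between the stages. It was called with 1 peak in each of the 12 adult libraries, with peaks of 489 to 1143 bp (median 663 bp), and in 0 of the 12 E18.5 libraries (adjusted p = 0.000312, Fisher's exact test). All 12 adult peaks shared the 468 bp chr7:112741783-112742250. They stood within the first 3.06% to 8.65% of the lines of their lists, where the meaning of line order is not stated but, in every list, 57.5% to 83.7% of the peaks in the first 10% of lines lay in regions called by all 24 libraries. The nearest neighbour, r31 (chr7:112742828-112744270), lies 385 bp away and was called in all 24 libraries, so every E18.5 list held a peak next to it. The call held without any 1 adult or litter, with adjusted exact p from 0.00201 to 0.00397. Of the 12 alternatives tried, 1 ended it: where a peak had to cover 50% of the region, 6 adult and 0 E18.5 calls were left (adjusted exact p = 0.0541).

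Tead1 r38 (chr7:112756009-112757471), 13.6 kb beyond r30, was called in all 12 adult libraries, with 363 to 1081 bp (median 774 bp) under peaks. It was called in 1 E18.5 library, gastrocnemius of litter 3, whose peak of 272 bp lay at the lower-coordinate edge, outside the 168 bp chr7:112756687-112756854 that all adult peaks shared (adjusted p = 0.00113, Fisher's exact test). At 2.79 kb beyond it, r40 (chr7:112760260-112761307) had the opposite pattern: 2 adult calls, of 256 and 397 bp, both in vastus intermedius, and all 12 E18.5 calls, of 418 to 951 bp with a median of 655.5 bp (adjusted exact p = 0.00415). Neither adult soleus, gastrocnemius nor vastus lateralis called r40 in any animal. Calls at r38 and r40 passed the threshold without any 1 adult or litter, and failed it when lists were thinned to the length of the shortest (adjusted exact p = 0.0772 for r38 and 0.195 for r40).

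Tead1 r76 (chr7:112836427-112838686) was called in 4 adult libraries (soleus of adult 3, vastus intermedius of adult 1, vastus lateralis of adults 1 and 2; 304 to 669 bp) and in all 12 E18.5 libraries (284 to 1102 bp, median 594.5 bp), with an adjusted p of 0.0266 in Fisher's exact test. Tead1 r7 (chr7:112690106-112691267), nearest of the 5 to the gene end, was called in 3 adult libraries, soleus of adults 1 and 2 and vastus intermedius of adult 1, and in 11 E18.5 libraries, all but vastus lateralis of litter 3 (adjusted exact p = 0.0453). Peaks at r7 were short, 247 to 653 bp in adult and 229 to 758 bp in E18.5 libraries, and shared no base among all E18.5 libraries. Each of the calls failed in 7 of 11 alternatives: r76 failed the threshold without adult 2 (adjusted exact p = 0.0827) or adult 3 (0.0914) and without litter 1 (0.118), 2 (0.0919) or 3 (0.068), and r7 failed it without adult 2 (0.0827) or 3 (0.212) and without litter 1 (0.272) or 2 (0.219). Both also failed in thinned lists (adjusted exact p = 0.0604 for r76 and 0.525 for r7) and with peaks of at least 300 bp (0.0734 for r76 and 0.154 for r7), and r7 failed from the first 57666 lines of each list (0.499). Just outside the threshold stood Tead1 r11, with 2 adult and 10 E18.5 calls (adjusted exact p = 0.0506), and r32, with 0 adult and 7 E18.5 calls (0.0566).

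Tead4, a TEAD gene induced during myoblast differentiation, held 36 regions on chr6:128227143-128300813 and its flanks. Its r13 (chr6:128244340-128245342), inside the gene, was called in 1 adult library, soleus of adult 1 with a peak of 619 bp, and in 9 E18.5 libraries with peaks of 241 to 905 bp (median 529 bp; adjusted p = 0.0453, Fisher's exact test). All 3 litters called it in soleus and vastus lateralis, 2 in gastrocnemius and 1 in vastus intermedius. The call was lost without adult 1 (adjusted exact p = 0.0539), 2 (0.198) or 3 (0.212) and without litter 1 (0.272) or 2 (0.0919), and also under 50% cover (0.32), in thinned lists (0.0772), with peaks of at least 300 bp (0.0734) and from the first 57666 lines of each list (0.085). Tead4 r17 (chr6:128253007-128254108) ran the other way at the edge of the threshold, with 10 adult and 2 E18.5 calls (adjusted exact p = 0.0506): it was called in all 9 adult vastus intermedius, gastrocnemius and vastus lateralis libraries and in 1 of 3 adult soleus libraries.

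Tead2, a TEAD gene known from embryonic tissues, and Tead3 had compact loci, with 19 regions at Tead2 (chr7:45215792-45233468) and 10 at Tead3 (chr17:28331671-28350805). At each of them 5 regions were tested and 0 passed the stage threshold. Of the 10 regions of Tead3 0 were called in 1 stage alone, beside shares of 14.9% (adult alone) and 10.3% (E18.5 alone) of all regions. Where a peak had to cover 50% of a region, 2 passed the stage threshold, both more often called at E18.5. With that cover 6828 of 51470 tested regions of the genome passed in that direction. Peaks covered 4.46 ± 0.34 kb of the Tead3 locus in adults (4.24 to 4.85 kb) and 6.47 ± 0.266 kb in litters (6.19 to 6.72 kb; SD, n = 3 each), and every litter lay above every adult. Tead2 had 6 regions called in adult libraries alone, the most often called being r7 with 5 adult and 0 E18.5 calls (adjusted p = 0.197, Fisher's exact test), and 1 in E18.5 libraries alone. At Tead2 8 of the 19 regions, and at Tead3 5 of the 10, also overlapped another gene, Cd37 at Tead2 r16 and Tulp1 at Tead3 r8 among them, and cannot be assigned to the TEAD gene.

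Vgll2, the vestigial-like cofactor of skeletal muscle, had few regions and 1 clear stage difference. The gene (chr10:52022502-52028471) and its flanks held 7 regions, of which r1 at the gene start was called in all 24 libraries and r3 near the other end in 11 adult and 12 E18.5 libraries. Vgll2 r5 (chr10:52031194-52032655) lies 2723 bp past the gene's upper-coordinate end, where no other gene is annotated. It was called in all 12 adult libraries, with 262 to 1342 bp (median 690 bp) under peaks, and in 1 E18.5 library, vastus lateralis of litter 3, with a peak of 559 bp (adjusted p = 0.00113, Fisher's exact test). No single base was common to the adult peaks. The call held without any 1 adult or litter and was lost where a peak had to cover 50% of the region (adjusted exact p = 0.0992) and in thinned lists (0.118).

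Vgll4, the competitor of YAP, held 49 regions (chr6:114860621-114970007), 6 of them called in all 24 libraries. Vgll4 r16 (chr6:114891863-114892940), inside the gene, was called in all 12 adult libraries, with peaks of 253 to 802 bp (median 578 bp), and in 3 E18.5 libraries, soleus of litter 2, gastrocnemius of litter 1 and vastus lateralis of litter 2, with peaks of 412 to 557 bp (adjusted p = 0.0113, Fisher's exact test). Vgll4 r6 (chr6:114858002-114859026) was called in 10 adult libraries, all but gastrocnemius of adult 2 and vastus lateralis of adult 1, and in gastrocnemius of litter 3 (adjusted exact p = 0.0168). It lies 1595 bp below the gene's lower-coordinate end, inside the neighbouring gene Atg7, whose product acts in autophagy, and cannot be assigned to either gene. Without adult 1 (adjusted exact p = 0.0539) or litter 3 (0.068) r16 missed the threshold, and without adult 3 (0.0914), litter 1 (0.118) or litter 2 (0.0919) r6 did. Where peaks had to cover 50% of a region both missed it (adjusted exact p = 0.0989 for r16 and 0.32 for r6), as did r6 in thinned lists (0.195). Vgll4 r9, with 7 adult and 0 E18.5 calls, stood just outside it (adjusted exact p = 0.0566).

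Vgll3, Yap1 and Wwtr1 had no region past the stage threshold. Vgll3 (chr16:65815189-65866368) was the sparsest locus by length, with 9 regions, 1.26 per 10 kb, against 4.49 at Tead1 and 5.04 at Tead2. At Yap1 (chr9:7931999-8004638) 18 of 39 regions were tested, and at Wwtr1 (chr3:57455644-57575910) 22 of 54. Each of the 3 genes had 1 region called in all 24 libraries, and for each it was the region at the gene start. Called in adult libraries alone were 2 of the 39 regions at Yap1, 4 of the 54 at Wwtr1 and 0 of the 9 at Vgll3. Called in E18.5 libraries alone were 2 at Yap1, 6 at Wwtr1 and 2 at Vgll3. Over all regions these shares were 14.9% (adult alone) and 10.3% (E18.5 alone). Only 2 libraries had called 2 of the adult regions at Wwtr1, and 2 of the E18.5 regions at Yap1, 3 at Wwtr1 and 1 at Vgll3.

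Within single muscles, where 3 adult libraries stand against 3 E18.5 libraries, no region can reach a p under 0.1 (exact), and regions called in 3 of 3 on one side and 0 of 3 on the other were counted. In vastus intermedius 12 member regions (3.59%) were called in all 3 adult and no E18.5 libraries, where the share over all regions was 0.672%, and 1 region (0.299%, against 1.92%) showed the reverse. The 12 came from 6 members: Tead1 r30, r34, r38 and r55, Tead2 r4, Vgll2 r5, Vgll4 r1, r6, r9 and r16, Yap1 r29 and Wwtr1 r25. The adult-only counts were 4 in soleus (1.2%, against 0.56%), 5 in gastrocnemius (1.5%, against 0.836%) and 7 in vastus lateralis (2.1%, against 1.23%). The E18.5-only counts were 3 in soleus (0.898%, against 1.55%), 7 in gastrocnemius (2.1%, against 2.12%) and 2 in vastus lateralis (0.599%, against 1.16%). Tead1 r30 was the only member region in the adult-only set of all 4 muscles. Tead1 r34 and r46, with 8 adult and 1 E18.5 calls each (adjusted p = 0.1, Fisher's exact test), were both called in 0 of 3 adult soleus libraries.

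Counted over whole loci, the numbers of called regions of adults and litters overlapped or met at 6 of the 9 members (mean ± SD over 3 adults and 3 litters, each the mean of 4 libraries). Tead1 had 43.6 ± 2.02 called regions in adults and 42.3 ± 6.41 in litters. The 3 loci in which every adult lay above every litter were Tead2, with 7.17 ± 0.629 in adults and 5.75 ± 0.5 in litters, Vgll2, with 3.67 ± 0.289 in adults and 2.92 ± 0.382 in litters, and Vgll4, with 22.5 ± 0.433 in adults and 19.9 ± 1.88 in litters. Of 32827 loci with a region, 5.19% showed that pattern and 13.9% the reverse, which no member showed. The exact permutation test over animals gave p = 0.1 for these 3 loci, the smallest it can give, and 0.524 after adjustment over all loci. At Tead2 and Vgll2 the 12 libraries of the stages overlapped: Tead2 had 2 to 11 (median 7.5) in adult and 4 to 7 (median 6) in E18.5 libraries, and Vgll2 had 3 to 5 (median 3.5) in adult and 2 to 4 (median 3) in E18.5 libraries. The number of such loci was also 3 per 100000 peaks, but 1 or 0 under each of the 6 other ways tried of calling or counting regions.

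**Figure D4:**
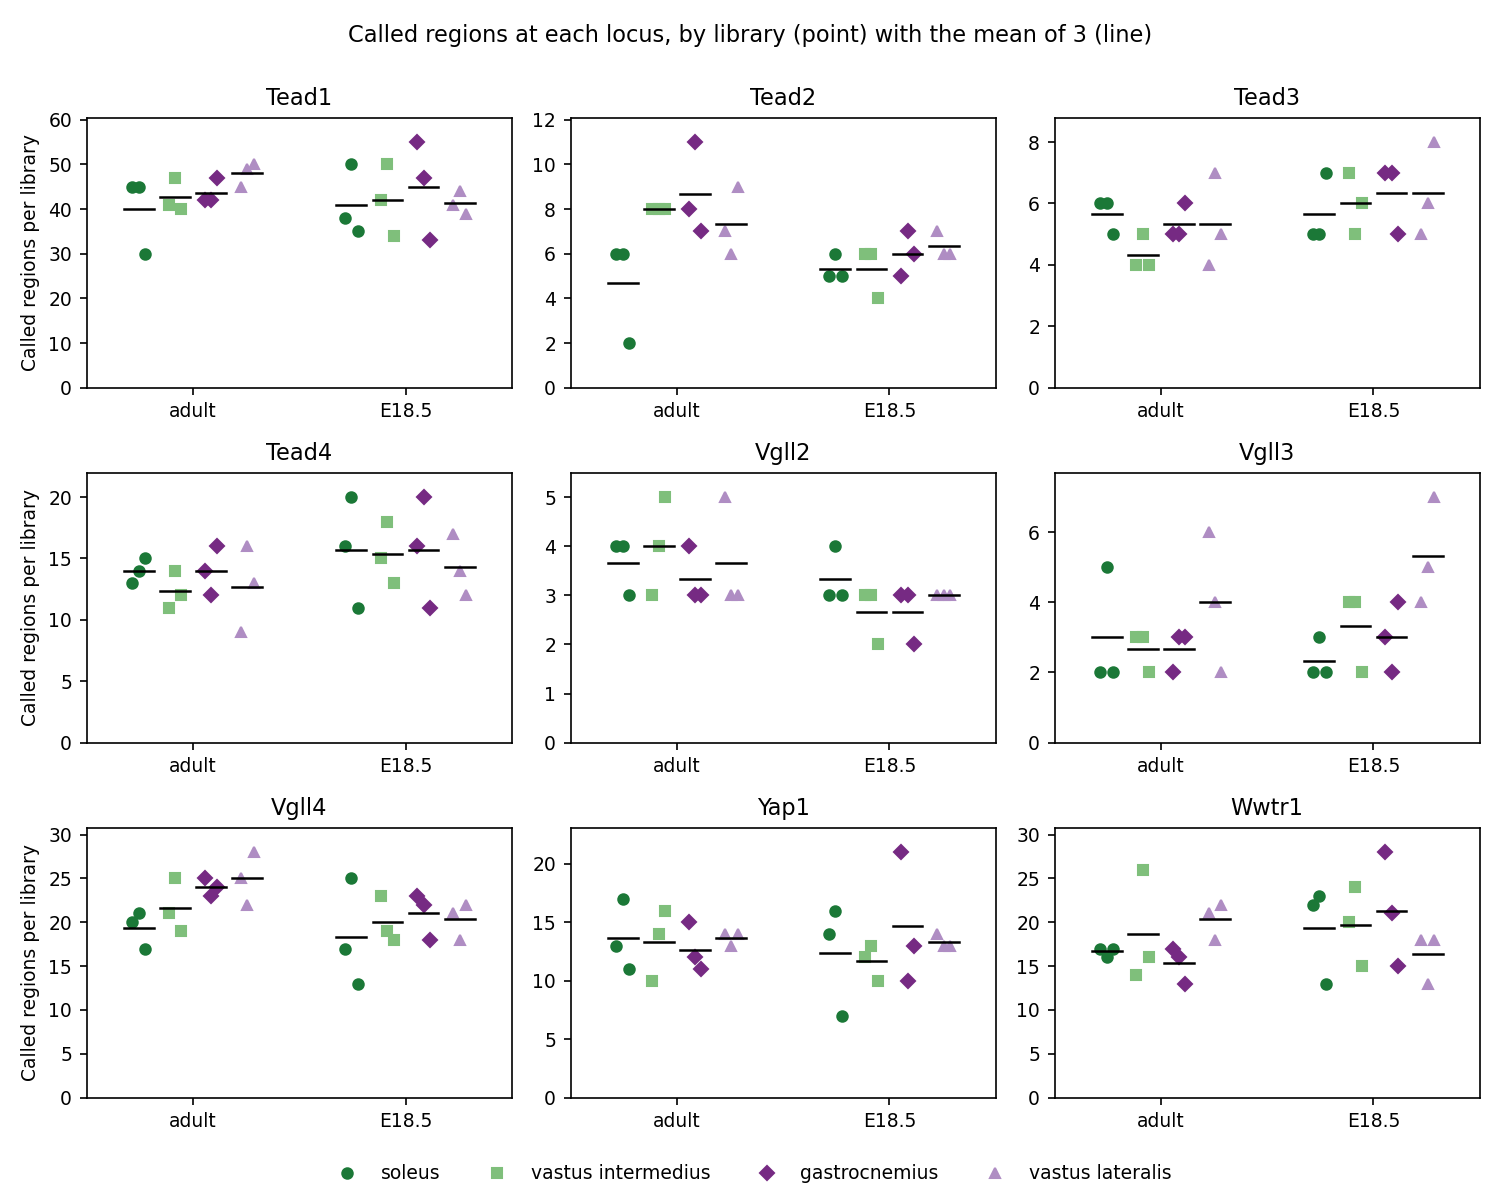
Called regions per library at each of the 9 loci (y axis, from 0), for adult (left) and E18.5 libraries (right), with a point for each library, a marker for each muscle and a line for the mean of 3. The stages overlap at every locus, and the single adult soleus library with 2 called regions at Tead2 and the E18.5 gastrocnemius library with 21 at Yap1 stand apart.

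In bases covered by peaks, the order of the stages differed from that in numbers of regions. Of the 9 loci, 0 had every adult above every litter (6.31% of all loci) and 1, Tead3, every adult below every litter (11.1%, against 29.9%). Tead2 was covered over 4.05 ± 0.484 kb in adults and 4.95 ± 0.318 kb in litters, although it had more called regions in every adult, and Wwtr1 over 10.1 ± 0.393 kb in adults and 13.2 ± 2.59 kb in litters. Tead1 was covered over 28.9 ± 0.766 kb in adults and 26.5 ± 5.04 kb in litters, Vgll2 over 2.79 ± 0.359 kb in adults and 2.38 ± 0.461 kb in litters, and Vgll4 over 16.2 ± 1.12 kb in adults and 15.3 ± 2.15 kb in litters (SD, n = 3 each).

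At the loci where numbers of called regions overlapped or met, Tead3 had 5.17 ± 0.52 called regions in adults and 6.08 ± 0.382 in litters, and Tead4 had 13.3 ± 1.3 in adults and 15.3 ± 3.19 in litters (SD, n = 3 each). Vgll3 had 3.08 ± 0.764 in adults and 3.5 ± 0.25 in litters. The coactivator genes stood at 13.3 ± 0.577 in adults and 13 in litters (10.75 to 15.25 per litter) for Yap1 and at 17.8 ± 1.09 in adults and 19.2 ± 3.5 in litters for Wwtr1. Litters were more spread out than adults at Tead1, Tead4, Vgll4, Yap1 and Wwtr1, the 5 loci with the most regions. This was not particular to them: bases under peaks in the whole genome had an SD of 5.95 Mb over adults and 13.2 Mb over litters. At each of the 5 loci litter 3 had the fewest called regions of the litters. The part of list length in this spread was not tested.

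The regions called in all 24 libraries could differ between the stages in how much of them the peaks covered and in where the peaks lay. Peaks covered more in all 3 adults than in any litter at 2 of the 23 regions (8.7%, against 5.2% of the 18301 regions of the genome called in all 24 libraries), and more in all 3 litters at 6 (26.1%, against 36.8%). At Tead1 r93 (chr7:112872166-112875070) the covered width was 1226 ± 176 bp in adults and 732 ± 175 bp in litters, and at Tead4 r24 (chr6:128275032-128278207) it was 1423 ± 179 bp in adults and 1134 ± 26.2 bp in litters (SD, n = 3 each). Adult peaks at r93 all shared 712 bp, while E18.5 peaks shared no base, so its widths are not of 1 common site. The widest relative gap in the other direction was at Tead1 r97 (chr7:112883398-112885110), 8.33 kb beyond r93, with 515 ± 50.3 bp in adults and 842 ± 183 bp in litters. Both Tead2 regions were wider in litters: r6 at the gene start measured 861 ± 214 bp in adults and 1372 ± 30.7 bp in litters, and r16 measured 908 ± 52.1 bp in adults and 1215 ± 113 bp in litters. E18.5 peaks shared 908 bp of r6 and 765 bp of r16, while adult peaks shared no base of either. The remaining 3 were Tead3 r2 and r8 and Vgll4 r46. The median ratio of adult to E18.5 width was 0.94 over the 23 regions and 0.893 over all such regions, beside 73.5 ± 5.95 Mb of peaks per library in adults and 86.7 ± 13.2 Mb in litters. A width depends on the peak caller and on depth, and no test was made of it.

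**Figure D5:**
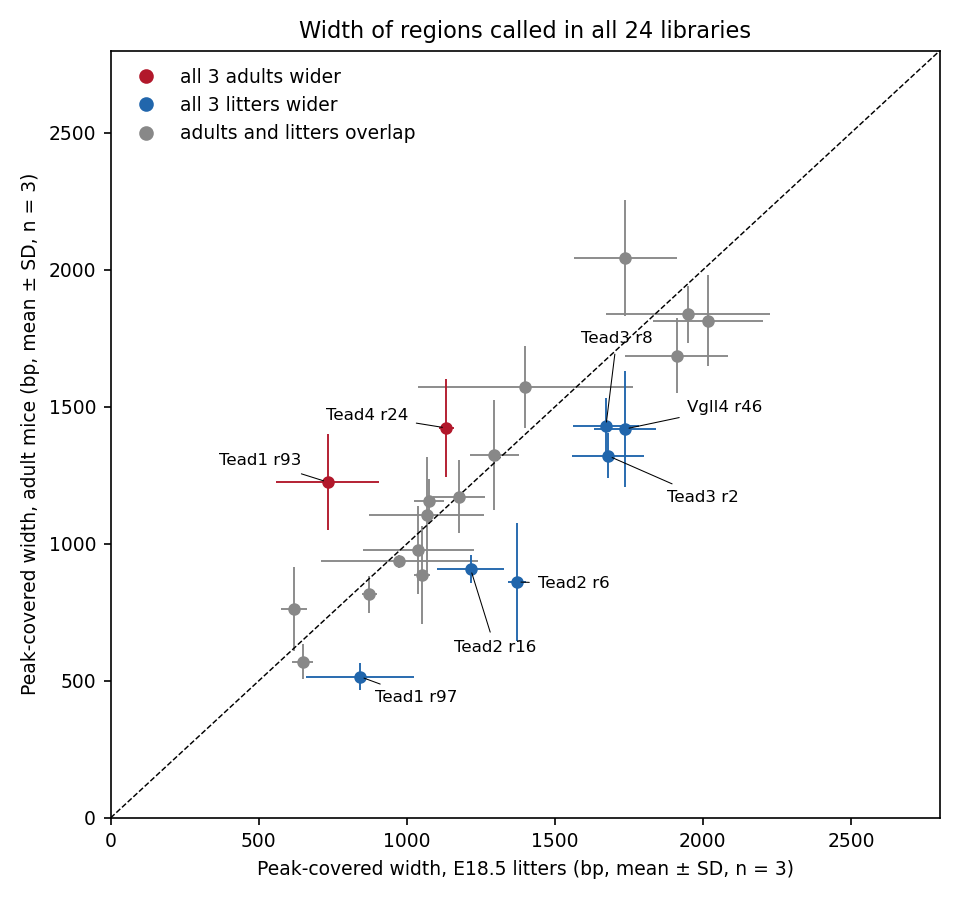
Peak-covered width (bp) of the 23 regions called in all 24 libraries, in adult mice (y axis) against E18.5 litters (x axis), as mean ± SD over 3 adults and 3 litters, with the line of equal width. The 2 regions in red, Tead1 r93 and Tead4 r24, were wider in all adults, and 6 in blue were wider in all litters.

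Between slow-biased and fast-biased muscles no region at these loci passed the threshold. No region of the genome passed an adjusted p of 0.05 between 6 slow-biased and 6 fast-biased libraries, of 48133 tested in adult and 49905 in E18.5 muscles (0% in both; Fisher's exact test, two-sided). The smallest p that 6 against 6 libraries can give is 0.00216 in this test. A fully split region could therefore pass the adjustment only if many others were split as well. These counts of 0 do not show that calls were alike. At an unadjusted exact p under 0.05, 0 of the 36 adult member regions tested were called more often in slow-biased muscles, against 0.472% of all regions, and 1 (2.78%, against 2.88%) in fast-biased muscles. At E18.5 the counts were 0 of 37 in both directions, against 0.234% of all regions higher in slow-biased and 0.591% in fast-biased muscles. The 1 adult region was Tead1 r109 (chr7:112908551-112910067), 1767 bp past the gene's upper-coordinate end, called by 0 of the 6 slow-biased and by 5 of the 6 fast-biased adult libraries (unadjusted p = 0.0152, Fisher's exact test). Its peaks were short, 283 to 668 bp. At E18.5 it was called in 6 of 12 libraries.

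The Vgll4 locus had fewer called regions in slow-biased than in fast-biased adult muscles before adjustment, and adult slow-biased lists were shorter. It had 20.5 ± 2.66 called regions in slow-biased libraries (17 to 25) and 24.5 ± 2.07 in fast-biased ones (22 to 28; SD, n = 6 each), with an unadjusted p of 0.0238 and 0.587 after adjustment over all loci (exact permutation test). At that unadjusted level 0.308% of all loci were higher in slow-biased and 6.82% in fast-biased adult muscles. At E18.5, 0 of the 9 loci stood at that level, where 0.253% of all loci were higher in slow-biased and 0.871% in fast-biased muscles. List length averaged 153684 peaks in slow-biased and 179502 in fast-biased adult libraries, and per 100000 peaks the Vgll4 difference, slow minus fast, was -0.06 called regions (exact p = 0.974). The p for the raw counts was 0.171 without adult 1 and 0.229 without adult 3. Vgll2, the gene tied to fibre type, showed a difference (slow minus fast) of 0.33 called regions in adult muscles (exact p = 0.708; 0.64 per 100000 peaks, exact p = 0.0649) and 0.17 at E18.5 (exact p = 1). Tead1 averaged 41.3 ± 6.15 called regions per slow-biased adult library, against 45.8 ± 3.43 per fast-biased one (SD, n = 6 each; difference -4.5, exact p = 0.156), and per 100000 peaks the difference turned round to 1.85 (exact p = 0.593). At E18.5 the Tead1 difference was -1.67 (exact p = 0.727).

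Between single muscles of a stage, regions called in 3 of 3 libraries of one and 0 of 3 of the other were counted for every pair, with no test. Vgll2 r4 (chr10:52029043-52030210), 572 bp past the gene's upper-coordinate end, was called in all 3 adult soleus libraries (263 to 373 bp), in 1 of vastus intermedius and in none of gastrocnemius and vastus lateralis. It was the only member region called in adult soleus and not in gastrocnemius (0.299%, against 0.351% of all regions) or not in vastus lateralis (0.299%, against 0.382%). At E18.5 the same region was called in 9 of 12 libraries, in all 4 muscles. Adult gastrocnemius and not soleus held Tead1 r34, r46 and r109 (0.898%, against 0.748%), and adult vastus lateralis and not soleus held Tead1 r46 and r85, Vgll4 r19 and Wwtr1 r36 (1.2%, against 1.04%). Within the slow-biased pair, 1 region was called in adult soleus and not vastus intermedius (0.299%, against 0.515%) and 2 the other way (0.599%, against 0.317%). Within the fast-biased pair, 1 was called in adult gastrocnemius and not vastus lateralis (0.299%, against 0.329%) and 2 the other way (0.599%, against 0.485%). Adult vastus intermedius held 2 regions not called in gastrocnemius (0.599%, against 0.195%) and 0 not called in vastus lateralis (0.213% of all regions), while 2 regions were called in gastrocnemius and not vastus intermedius (0.599%, against 0.726%) and 2 in vastus lateralis and not vastus intermedius (0.599%, against 0.935%).

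At E18.5, soleus and not vastus lateralis held Tead1 r77, Tead4 r16 and Vgll4 r5 (0.898%, against 0.292% of all regions), and vastus lateralis and not soleus held Tead1 r87, Vgll3 r3 and Yap1 r35 (0.898%, against 0.335%). Gastrocnemius and not vastus lateralis held Tead1 r73 and r84 and Wwtr1 r3 (0.898%, against 0.549%), and the reverse was shown by Vgll3 r3 and Yap1 r35 (0.599%, against 0.27%). Gastrocnemius and not soleus held Tead1 r84 and r85 (0.599%, against 0.455%), with 0 regions the other way (0.149% of all regions). Tead1 r84 was called in all 3 E18.5 gastrocnemius libraries and in no library of the 3 other muscles at that stage, and was the 1 region called in gastrocnemius and not vastus intermedius (0.299%, against 0.479%), with 0 the other way (0.274%). Tead1 r77 was the 1 region called in soleus and not vastus intermedius (0.299%, against 0.207%), with 0 the other way (0.307%). Between vastus intermedius and vastus lateralis there were 0 regions in both directions (0.321% of all regions were called in vastus intermedius alone of the pair and 0.304% in vastus lateralis alone).

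Genes of the wider pathway were counted by the same stage test. Of 390 tested regions at 27 Hippo pathway genes, 5 were called more often in adult (1.28%, against 1.55% of all regions) and 6 at E18.5 (1.54%, against 4.55%), at 4 and 6 genes. Vgll1, a further vestigial-like gene in that list, had no region. Of 404 tested regions at 22 described YAP and TEAD targets, 8 (1.98%) were called more often in adult and 28 (6.93%) at E18.5, at 5 and 7 genes. Rbms3, an RNA-binding protein gene with 260 regions, supplied 16 of those 28, and had 48.7 ± 7.91 called regions in adults and 76.1 ± 18.8 in litters (SD, n = 3 each). Of 55 tested regions at 7 muscle genes with a described MCAT element, 0 were called more often in adult and 2 at E18.5, both at Tnnt2, the cardiac troponin T gene that is active in embryonic skeletal muscle, with 1 adult call each and 12 and 10 E18.5 calls.

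The genes with the most stage-bound regions in these lists ran in different directions. Dock5 had 4 regions called more often at E18.5, Tgfb2, a growth factor gene, 1 in adult and 3 at E18.5, and Asap1 2 at E18.5. Crim1, a transmembrane regulator of BMP signals, had 4 called more often in adult and 0 at E18.5, with 32.8 ± 1.28 called regions in adults and 23.6 ± 5.68 in litters. Amotl1, an angiomotin that binds YAP, had 2 in adult and 1 at E18.5. Taok3, a kinase upstream of the Hippo kinases, and Axl, a receptor tyrosine kinase, had 1 in each direction. Nt5e, the gene of the nucleotidase CD73, had 1 region called in all 12 adult and no E18.5 libraries, as at Tead1 r30. Across the 24 libraries, the loci whose called regions per 100000 peaks ran most like those of Tead1 were Slc6a6 (Pearson's r = 0.846), Galnt2 (0.846) and Mtss1 (0.844), of 16938 genes with at least 10 regions. This is a description over libraries that share animals and whose counts all scale with list length.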

How the data were processed

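The authors deposited 1 list of ATAC-seq peak positions per library (mm10, per the submitters' processing notes), with no other measure of a peak such as a count, score or coverage. Those notes name MACS2 2.1.1, Bowtie2 2.4.4, Trimmomatic 0.39.0, FastQC 0.11.5, bedtools 2.25.0, Picard and SAMtools 1.14.0. Thresholds, read depths and any shift of reads for Tn5 are not stated in these notes, the labels or the files. Peaks were called per library, as the 24 separate lists show, and 0 of 276 pairs of lists were identical.

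Peaks on chromosomes 1 to 19, X and Y were merged where they overlapped or touched, which gave 930761 regions, and 459616 were kept. An overlap of 1 bp with a peak made a region called in a library. Gene bodies came from RefSeq (GRCm38.p6), without exons, so introns, exons and UTRs were not told apart. Regions were compared by Fisher's exact test per region and loci by exact permutation tests, both two-sided, in Python 3.11.15 with numpy 2.4.6 and scipy 1.17.1. On simulated calls for 170267 regions the stage test recovered 72 of 100 regions with 95% against 5% of libraries, 5 of 100 with 85% against 15%, and 0 of 170067 unchanged ones. Simulated libraries were drawn independently, which those of 1 animal or litter are not. Only 100 regions of each kind were changed, while 2631 and 7739 regions of the genome passed in adult and at E18.5. The simulated counts therefore do not give the error rates of the test on these data.

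The labels tie all 4 muscles of a replicate to 1 animal or litter. Deviations of calls from the muscle means correlated at a median of 0.01 in adults and 0.055 in litters within animals or litters, against -0.0068 and -0.025 between them. The deviations of a muscle's 3 libraries cancel out, so the values between animals or litters follow from those within and are no separate baseline. Numbers do not pair adults with litters.

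The members, lists and tests were chosen with earlier results of these data known. By rule, regions past a threshold, separated between groups or at a gene end are named. Outside this rule, some regions called in all 24 libraries, some just outside the stage threshold and Tead2 r7 were added. The widths given for Tead1 r93 and r97 and Tead4 r24 are of such added regions. Of the pathway lists, the 10 genes with the most regions past the stage threshold are named.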

Additional observations from a re-analysis of the deposited data

Results flagged for a closer look

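Called regions per locus were checked in 36 groups of 6 libraries (the 9 loci in slow-biased and fast-biased muscles of each stage). A library far from the 5 others was sought by Dixon's criterion, which chance meets in about 1 of 20 groups of continuous, normal values. That rate does not hold for small counts with ties: where 5 counts are equal, any other count meets the criterion, as at Vgll2. It was met 5 times. At Tead2 the soleus library of adult 3 had 2 called regions and the other slow-biased adult libraries 6 to 8. At Vgll3 the soleus library of adult 2 had 5 and the others 2 to 3. At Wwtr1 the vastus intermedius library of adult 2 had 26 and the other slow-biased adult libraries 14 to 17. Among fast-biased E18.5 libraries, gastrocnemius of litter 3 had 2 at Vgll2, where the others had 3, and gastrocnemius of litter 1 had 21 at Yap1, where the others had 10 to 14. In none of the 9 loci did every adult move one way and every litter the other between slow-biased and fast-biased muscles.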

How the results depend on the processing

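Of 106 repeats of the 9 stage-bound regions under the alternatives, 70 stayed past the threshold, 36 did not and 0 changed direction. Keeping only regions called in at least 3 libraries could not change a stage call, because regions with fewer calls are not tested. That alternative left every adjusted p as it was, and its repeats of the 9 regions are among the 70. Tead1 r30 and r38 and r40 each failed in 1 of 12, Vgll2 r5 in 2, Vgll4 r16 in 3, Vgll4 r6 in 5 and Tead4 r13 in 9, and Tead1 r7 and r76 each in 7 of 11. The 50% cover left r7 and r76 too few calls to be tested, and these cases are not among the 106. Where several regions of an alternative overlapped a stage-bound region, the one with the smallest p was taken, which favours a region staying past the threshold. The number of member regions called more often in adult was 5 in the analysis reported, 3 with peaks covering 50% of a region, 2 in thinned lists and 16 from the first 57666 lines of each list, an alternative added after seeing the data. The number at E18.5 was 4 in the analysis reported, 0 in thinned lists and 14 from the first lines. The counts over all regions moved too. In adult they were 1632 of 51470 tested with the 50% cover, 319 of 150873 in thinned lists and 6270 of 57315 from the first lines. At E18.5 they were 6828, 805 and 13032 in the same order. Leaving out each adult or litter gave 4 to 6 regions in adult and 1 to 5 at E18.5, beside 1353 to 2035 and 2810 to 8761 over all regions. Loci with every adult above every litter numbered 3, and 1 under the 50% cover and with regions called in at least 3 libraries, and 0 in thinned lists, with peaks of at least 300 bp, from the first lines and for gene bodies alone, while leaving out an animal gave 3 each time. Loci with every adult below every litter numbered 0, and 1 under the 50% cover, in regions called in at least 3 libraries, from the first lines and for gene bodies alone, 2 with peaks of at least 300 bp, and 0 to 2 without an animal.

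Slow-biased against fast-biased muscles gave 0 regions past the threshold under every alternative run, with the replicate block (animal or litter) too, where the smallest adjusted p over the genome was 0.361 in adult and 1 at E18.5. The smallest exact p possible is 0.0286 without an animal or litter, 0.00926 with the replicate block and 0.00216 with all libraries. No single region could pass the adjustment alone, so these counts of 0 do not show that calls were alike. Vgll4 was the 1 adult locus at an unadjusted p under 0.05, also with the replicate block (p = 0.037, exact within animals). That number was 0 under the 50% cover, in thinned lists, from the first lines and per 100000 peaks, and 0 to 1 without an animal, and the Vgll4 difference turned round from the first lines (exact p = 0.437). Differences between groups per locus were computed anew under each alternative, and 50 of these 315 repeats had the other sign. Repeats with the replicate block are among the 315 and could not change sign, because the block alters the p alone. The cause of these changes was not tested. Calls carry no amount of accessibility, and with no read depth a difference between short and long lists cannot be told apart from a difference in chromatin.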
